A study of Mus musculus with 7 samples.

Results

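The genes described are 10 mouse genes whose human counterparts lie at Alzheimer's disease risk loci: Bin1, Picalm, Sorl1, Clu, Inpp5d, Plcg2, Abca7, Ptk2b, Cd2ap and Mef2c. They were chosen by name, and all 10 of 10 were found among the 55536 genes of the deposited gene tables. RNA was measured in hippocampi of mice aged 10 months by split-pool barcoding, in which cells or nuclei are labelled first in a well that holds 1 sample and are then mixed for the later barcodes. The 4 groups were wild-type mice given water (WT-veh), wild-type mice given PMX205 (WT-PMX), Arctic48 mice given water (Arc-veh) and Arctic48 mice given PMX205 (Arc-PMX). Arctic48 mice carry a human APP transgene with the Swedish, Indiana and Arctic mutations in the hemizygous state and form fibrillar amyloid plaques, and the wild-type mice without the transgene came from the same cross to C57BL6/J. PMX205, a cyclic hexapeptide that blocks the complement receptor C5aR1, was given at 20 µg/ml in the drinking water, for 12 weeks by the sample records. The paper logs body weights through 10 weeks of treatment and names 12 weeks only for a younger cohort. Each group had 6 wells of nuclei, 3 from females and 3 from males, with 1 mouse per well, and 6 wells of CD11b-selected single cells, each pooled from 2 to 3 mice and prepared with actinomycin D, anisomycin and triptolide. Both preparations used parts of hippocampi, so they may share mice. The well was therefore the replicate, and the results below are from nuclei unless single cells are named.

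The genes work in a few connected systems. BIN1, PICALM and CD2AP bend, coat or anchor membrane during endocytosis, and SORL1 is a sorting receptor that steers APP through endosomes. CLU and ABCA7 act in extracellular chaperoning and lipid handling. INPP5D (SHIP1) and PLCG2 are linked enzymes of membrane phosphoinositide signalling, with different lipid substrates, downstream of TREM2 and other immune receptors of microglia, the brain's resident macrophages. PTK2B (Pyk2) is a calcium-responsive tyrosine kinase of synapses and immune cells, and MEF2C is a transcription factor of both neurons and microglia.

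After filtering and removal of doublets 43891 nuclei remained, of which 38188 fell into clusters named from marker genes, where each name stands for nuclei like that type: 23574 neurons, 5475 astrocytes, 4157 oligodendrocytes, 1520 microglia, 1280 oligodendrocyte precursors (OPCs), 631 choroid plexus, 428 endothelial, 420 fibroblast, 340 ependymal, 314 pericyte and 49 T cell nuclei. The other 5703 nuclei stayed unnamed. A nuclear well held 4389302 to 30003513 transcripts. The 10 genes were kept out of the clustering and of the marker lists, so their levels did not help to name the types. The WT-veh wells F3 and M3 stood apart in holding 0 and 3 microglia and 14 and 28 oligodendrocytes, and the called genotype differences are also given without them. The study left out 1 wild-type sample whose expression marked it as Arctic, without saying from which experiment. A well counted as wild type here may therefore hold an Arctic mouse, which bears on every wild-type value and genotype comparison. As a check of the labels, mouse App in neurons ran from 447.6 to 571.7 counts per 1000000 transcripts (CPM) in the wild-type wells and from 542.9 to 798.2 CPM in the Arctic wells. In neurons the Arctic wells were higher by 0.34 ± 0.05 on the log2 scale (SE, adjusted p = 0.001083, edgeR's quasi-likelihood test). In oligodendrocytes App ran from 864.3 to 1658.8 CPM in WT-veh and from 1443.1 to 1862.7 in WT-PMX. The Arctic wells there held 1977.4 to 4190.9 CPM in Arc-veh and 2373.1 to 3329.6 in Arc-PMX, with no overlap between genotypes. Whether transgene reads were counted under App was not tested.

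Levels are given as CPM, the gene's transcripts per 1000000 transcripts of that cell type in that well, for wells with at least 10 nuclei of the type. CPM is not corrected for gene length, so the levels of different genes were not compared. For each gene the 10 types were ordered by mean log2 CPM, and each type was compared with the next one within wells by a 2-sided permutation test that flips the signs of the paired differences. Of the 90 neighbouring pairs, 18 differed at an adjusted p under 0.05. Of these 18, 8 were kept with at least 20 nuclei per well and 15 with types named by the highest marker score. Transcripts released from broken cells were not separated, so a few CPM in a type may come from other cells. Several small types held much neuronal RNA: the summed neuron markers were 358.5 to 4689.6 CPM in endothelial, 260.1 to 4791.6 in ependymal, 0.0 to 3767.9 in pericyte and 130.5 to 4300.1 in fibroblast wells, against 6143.5 to 7035.2 CPM in neurons. The part of neuronal RNA in the levels given for these types was not tested, nor was that of microglial RNA.

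Inpp5d encodes SHIP1, a lipid phosphatase of blood-derived and microglial cells (chromosome 1, 87620312 to 87720507, plus strand, mm10). Microglia held the highest level, at 2110.1 CPM in the lowest, 2716.6 in the median and 3861.5 in the highest of 22 wells. Endothelial nuclei came next with a median of 70.7 CPM, lower in 17 of 17 shared wells by 5.38 ± 1.69 on the log2 scale (SD, adjusted p = 0.000257, permutation test). Neurons and astrocytes had medians of 1.39 and 1.91 CPM. The gene was thus far higher in microglia than in the other 9 types compared, with no overlap between wells of microglia and wells of the others.

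Plcg2, a phospholipase that produces calcium signals behind immune receptors (chromosome 8, 117498291 to 117635142, plus strand), was also highest in microglia, at 260.9, 502.1 and 999.0 CPM in the lowest, median and highest of 22 wells. It exceeded endothelial nuclei (median 74.8 CPM) in 17 of 17 wells by 3.35 ± 2.36 on the log2 scale (SD, adjusted p = 0.000257, permutation test). Endothelial nuclei exceeded fibroblasts (adjusted p = 0.02068), and neurons, at a median of 13.7 CPM, exceeded astrocytes in 19 of 24 wells (adjusted p = 0.005025, both by permutation tests).

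Mef2c, the transcription factor (chromosome 13, 83504034 to 83667080, plus strand), had a median of 1549.8 CPM in microglia, with wells from 901.0 to 2622.4 CPM. Pericytes followed at 406.3 CPM, below microglia in 13 of 13 wells by 2.00 ± 0.71 on the log2 scale (SD, adjusted p = 0.002197, the smallest unadjusted p that 13 wells allow being 0.000244, exact permutation test). Endothelial nuclei (272.7 CPM) came next, lower than pericytes in 11 of 12 wells, and were not separated from neurons (186.4 CPM), which in turn exceeded astrocytes in 24 of 24 wells.

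Ptk2b, the Pyk2 kinase gene (chromosome 14, 66153257 to 66281052, minus strand), stood nearly level in microglia and neurons. Microglia ran from 217.9 to 861.0 CPM with a median of 575.0, and neurons from 333.0 to 514.0 CPM with a median of 439.0. The difference of 0.34 ± 0.46 on the log2 scale (SD) passed the permutation test in 18 of 22 wells (adjusted p = 0.0162), although the wells of both types overlapped. The types stood closer in wild-type wells (medians of 464.1 CPM in microglia and 450.4 in neurons) than in Arctic wells (601.6 and 407.6 CPM), and the order was not tested within a genotype. Neurons exceeded endothelial nuclei, whose median of 229.5 CPM stands beside neuron markers there of 1849.3 CPM for Syt1 and 451.7 for Rbfox3 (3351.3 and 1052.8 in neurons), and astrocytes and OPCs were at medians of 10.8 and 11.5 CPM.

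Of the endocytosis genes, Picalm, a clathrin assembly adaptor (chromosome 7, 90130213 to 90213465, plus strand), was highest in microglia at a median of 950.2 CPM (wells from 579.9 to 1589.7). Oligodendrocytes followed at 460.4 CPM, lower in 22 of 22 wells by 1.03 ± 0.28 on the log2 scale (SD, adjusted p = 0.00018, permutation test, from the smallest unadjusted p that the resamples give, 1e-05). Endothelial nuclei (303.7 CPM) were below oligodendrocytes in 16 of 17 wells. All 10 types had a median above 0, down to 86.7 CPM in ependymal nuclei.

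Bin1, the amphiphysin-like membrane-curvature gene (chromosome 18, 32377230 to 32435737, plus strand), had a different leading type. Oligodendrocytes held 825.6, 1071.4 and 1505.9 CPM in the lowest, median and highest of 24 wells, and microglia 536.8, 731.5 and 1444.3 CPM in 22 wells. Oligodendrocytes were higher than microglia in 21 of 22 wells by 0.57 ± 0.30 on the log2 scale (SD, adjusted p = 0.00018, permutation test). Neurons (132.4 CPM) were below microglia in 22 of 22 wells by 2.42 ± 0.40 (SD). Astrocytes were lowest, at 37.8 CPM.

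Cd2ap, an adaptor that ties membrane proteins to actin (chromosome 17, 42792951 to 42876665, minus strand), was highest in endothelial nuclei at a median of 391.2 CPM, with wells from 153.8 to 717.0. Microglia, at 240.8 CPM, were lower in 14 of 17 wells by 0.62 ± 0.66 on the log2 scale (SD, adjusted p = 0.00936, permutation test). The other types lay between 86.0 and 188.5 CPM in the median, and no neighbouring pair among them passed the test.

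Sorl1, the APP sorting receptor (chromosome 9, 41964720 to 42124297, minus strand), was shared at the top by astrocytes, ependymal nuclei and neurons, with medians of 294.8, 290.3 and 269.9 CPM that the test did not separate. Astrocyte wells ran from 181.4 to 419.1 CPM. Neurons exceeded oligodendrocytes (137.3 CPM) in 24 of 24 wells by 1.02 ± 0.66 on the log2 scale (SD, adjusted p = 0.00018, permutation test). OPCs, of the same lineage as oligodendrocytes, were lowest at 9.58 CPM.

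Clu, which encodes the secreted chaperone clusterin (chromosome 14, 65968483 to 65981547, plus strand), was highest in astrocytes, at 77.6, 331.9 and 641.6 CPM in the lowest, median and highest of 24 wells. Ependymal nuclei followed at 130.1 CPM, lower in 13 of 13 wells by 1.63 ± 0.80 on the log2 scale (SD, adjusted p = 0.002197, exact permutation test), and choroid plexus at 61.2 CPM. Microglia were at 0 in 17 of 22 wells.

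Abca7, a lipid transporter (chromosome 10, 79996494 to 80015572, plus strand), was low throughout. Choroid plexus held the highest mean, with a median of 34.6 CPM and wells from 14.2 to 78.3, which rest on 1 to 28 transcripts per well. No neighbouring pair passed the permutation test for Abca7, so its order over the types is not resolved at this depth.

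**Figure D1:**
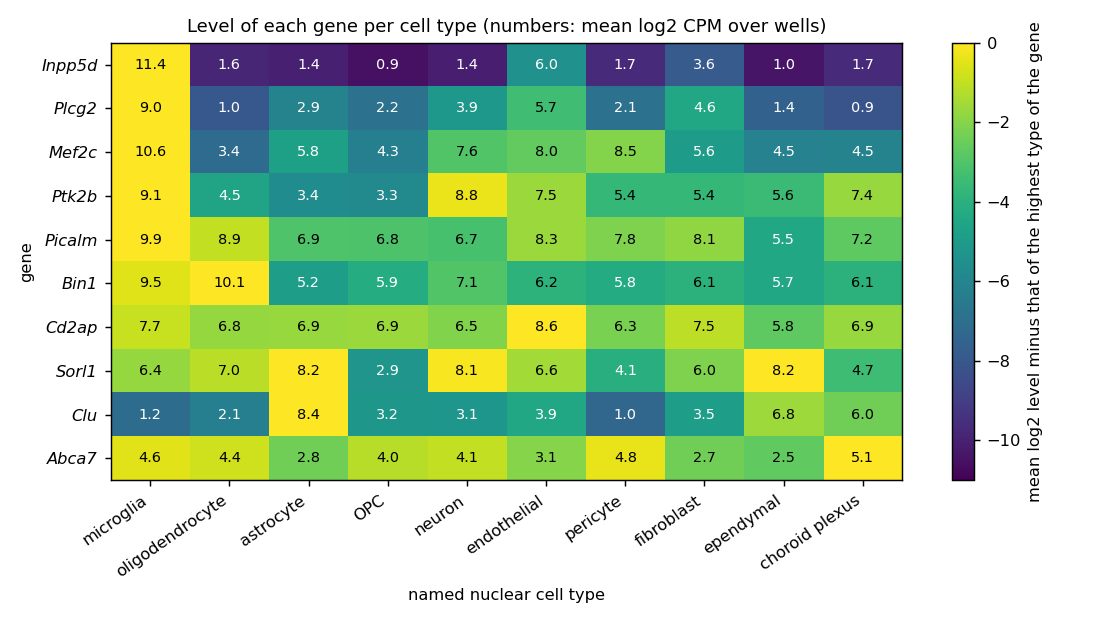
Each cell of the map gives the mean log2 CPM of a gene (rows) over the wells of a nuclear cell type (columns), and the colour gives the difference in log2 units from the type where that gene is highest. With all neurons pooled, Inpp5d, Plcg2, Mef2c, Ptk2b and Picalm are highest in microglia, Bin1 in oligodendrocytes, Cd2ap in endothelial nuclei and Clu in astrocytes. Sorl1 is not separated between astrocytes, ependymal nuclei and neurons, nor Abca7 between any neighbouring types.

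Within neurons the levels also depended on the subclass. Nuclei were named as dentate gyrus (DG) granule neurons (8446), CA1 neurons (3377), CA3 neurons (1697) and GABAergic neurons (2612), each in 24 wells, and 22 of 30 neighbouring pairs passed the same test, which was chosen after seeing the data. The rest of the 23574 neuron nuclei got no subclass and were not compared here. Among them was a cluster of 1713 nuclei in which 6 GABAergic markers were detected. Ptk2b stood at medians of 700.8, 565.4 and 477.7 CPM in DG, CA3 and CA1 neurons but at 17.1 CPM in GABAergic neurons, lower than CA1 in 24 of 24 wells by 4.64 ± 0.67 on the log2 scale (SD, adjusted p = 2.143e-05, permutation test). Each named excitatory subclass thus lay far above the GABAergic one, and the wells did not overlap. The DG median also stood above that of microglia, a difference that was not tested.

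Mef2c divided these subclasses along another line. GABAergic and DG neurons had medians of 487.2 and 288.7 CPM, and CA1 and CA3 neurons 17.3 and 8.19 CPM. DG exceeded CA1 in 24 of 24 wells by 3.97 ± 0.35 on the log2 scale (SD, adjusted p = 2.143e-05, permutation test). Among these subclasses Plcg2 was highest in DG neurons: 44.7 CPM there against 5.00 in CA3, a difference of 3.00 ± 0.49 (SD) in 24 of 24 wells.

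Sorl1 fell stepwise from CA1 (410.5 CPM) through DG (310.9) and CA3 (191.1) to GABAergic neurons (116.1), each step in 24 of 24 wells. The CA1 median stood above that of astrocytes, a difference that was not tested. Bin1 was higher in CA3 (191.6 CPM) than in CA1 (128.8) by 0.49 ± 0.13 on the log2 scale (SD) in 24 of 24 wells, and Clu was higher in GABAergic neurons (17.2 CPM) than in CA1 (5.72). Abca7 was higher in GABAergic and CA3 neurons (26.8 and 23.2 CPM) than in CA1 (12.7) and DG (6.96). Picalm and Cd2ap varied least, with medians of 87.2 to 122.3 and 75.2 to 99.2 CPM.

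**Figure D2:**
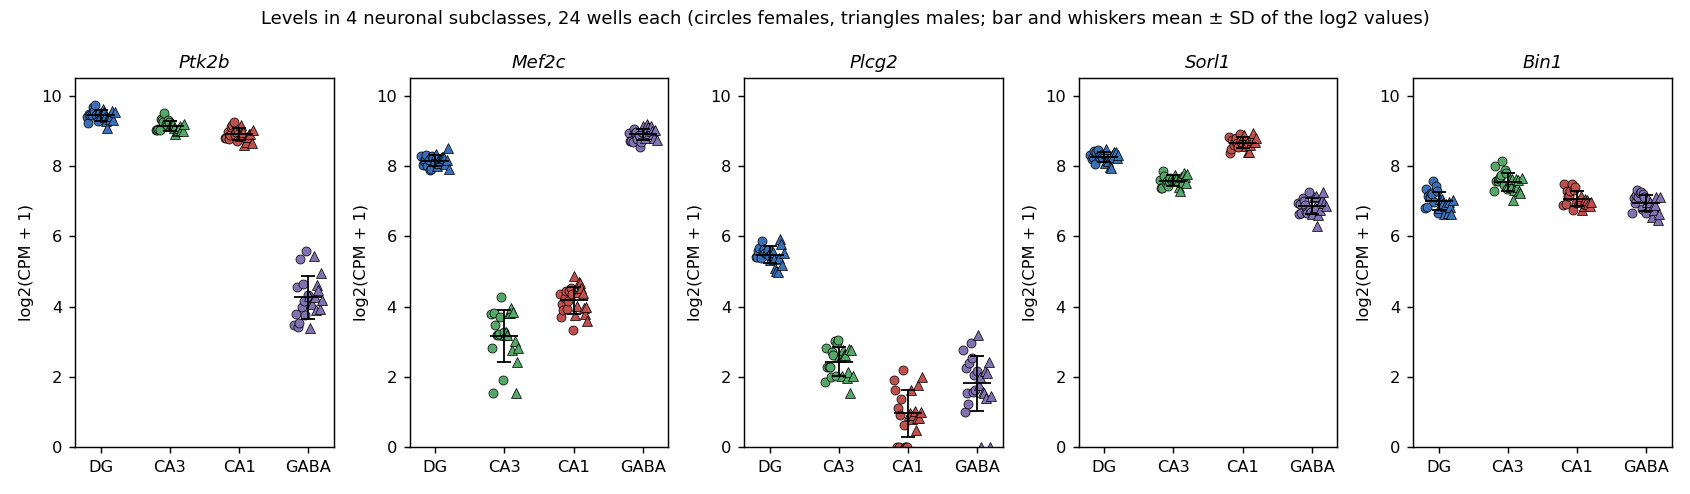
Each panel plots log2(CPM + 1) of 1 gene in DG, CA3, CA1 and GABAergic neurons, with a point per well (24 each, circles females, triangles males) and a bar with whiskers for the mean ± SD. Ptk2b is lowest in GABAergic neurons after small steps down from DG through CA3 to CA1, Mef2c is high in DG and GABAergic neurons, and Plcg2 stands out in DG neurons.

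The comparison of Arctic with wild-type mice asks which of these genes change in the presence of amyloid. Counts were summed per well and type and tested with edgeR's quasi-likelihood test with sex in the model, and p-values were adjusted over all genes of that type and contrast. Of 90 pairs of a gene with 1 of the 9 tested types, 50 passed the filter on low counts: all 10 genes in neurons, 8 in microglia (not Clu or Abca7), 6 in astrocytes, 6 in choroid plexus, 5 in oligodendrocytes, 5 in endothelial nuclei, 4 in fibroblasts, 3 in OPCs and 3 in pericytes. Between Arc-veh and WT-veh 2 of the 50 passed, beside 3.38% of all genes tested in these types. Between all Arctic and all wild-type wells, averaged over treatment, 4 of the 50 passed, beside 5.72% of all genes. Both shares are close to the background. The members' median difference was -0.09 on the log2 scale for Arc-veh minus WT-veh and -0.03 for Arctic minus wild type, while the medians over all genes of a type ran from -0.11 to 0.03 and from -0.08 to 0.04.

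Clu was higher in Arctic astrocytes. Its lowest, median and highest wells were 77.6, 224.2 and 431.5 CPM in WT-veh, 294.1, 308.6 and 452.9 in WT-PMX, 169.1, 411.8 and 641.6 in Arc-veh and 314.3, 383.0 and 614.8 in Arc-PMX. The groups overlapped, with 11 of 12 Arctic wells above the wild-type median and 5 above every wild-type well. Arctic exceeded wild type by 0.51 ± 0.15 on the log2 scale (SE, adjusted p = 0.01183) and Arc-veh exceeded WT-veh by 0.75 ± 0.22 (SE, adjusted p = 0.01626, both by edgeR's quasi-likelihood test), beside 11.3% and 7.63% of all genes called higher in astrocytes. Without the WT-veh wells F3 and M3 the Arc-veh difference was 0.56 (adjusted p = 0.1205) and the averaged one 0.41 (adjusted p = 0.04664). The Arc-veh call was also lost without Arc-veh F2, Arc-veh M3 or WT-veh M1, with an adjusted p of at most 0.08237.

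The yield per nucleus moved with genotype in the same cells. The median over wells of transcripts per astrocyte nucleus was 1332.2 in WT-veh, 1679.8 in WT-PMX, 3303.2 in Arc-veh and 2588.4 in Arc-PMX. With this yield as a covariate, an alternative chosen after seeing the data, the averaged Clu difference was 0.12 ± 0.14 on the log2 scale (SE, adjusted p = 0.693, edgeR's quasi-likelihood test). The Arc-veh minus WT-veh difference of Clu was then 0.25 (adjusted p = 0.6047, same test), and genotype and yield cannot be told apart for this gene. The summed neuron markers in astrocyte nuclei ran the other way, at medians of 263.0, 230.5, 168.8 and 205.4 CPM in the same order of groups, all 6 of 6 marker genes counted. The summed astrocyte markers themselves were 18125.2 to 22045.0 CPM in wild-type and 14534.0 to 18865.4 CPM in Arctic wells. The part of these shifts in the Clu difference was not tested further.

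Sorl1 was higher in Arctic astrocytes and oligodendrocytes in the comparison averaged over treatment. Neither pair was called between Arc-veh and WT-veh. In astrocytes the lowest, median and highest wells were 181.4, 278.8 and 300.7 CPM in WT-veh, 183.7, 248.0 and 310.8 in WT-PMX, 282.8, 317.3 and 363.9 in Arc-veh and 257.4, 352.0 and 419.1 in Arc-PMX. Of the 12 Arctic wells, 10 lay above the wild-type median and 7 above every wild-type well. The difference was 0.30 ± 0.09 on the log2 scale (SE, adjusted p = 0.01552, edgeR's quasi-likelihood test). It kept its call without any single well and without WT-veh F3 and M3 (0.31, adjusted p = 0.02378), and with yield per nucleus as a covariate it was 0.25 (adjusted p = 0.1172).

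In oligodendrocytes Sorl1 wells were 48.4, 100.5 and 259.3 CPM (lowest, median and highest) in WT-veh, 47.5, 107.1 and 177.4 in WT-PMX, 125.4, 154.1 and 210.6 in Arc-veh and 89.2, 188.8 and 238.3 in Arc-PMX. The highest WT-veh value rests on 3 transcripts in the 14 nuclei of well F3. Of the Arctic wells, 11 of 12 were above the wild-type median and 0 above every wild-type well. Arctic exceeded wild type by 0.57 ± 0.17 on the log2 scale (SE, adjusted p = 0.03136, edgeR's quasi-likelihood test), beside 3.9% of all genes called higher in oligodendrocytes, and by 0.56 with yield as a covariate (adjusted p = 0.04444). Without WT-veh F3 and M3 it was 0.57 (adjusted p = 0.03947). The call was lost without any 1 of 9 wells (WT-veh F1, F2 or M1, WT-PMX F1 or F2, Arc-veh M3, and Arc-PMX F1, F3 or M3), where the difference stayed between 0.53 and 0.56, with doublets kept (0.41, adjusted p = 0.1431), above 500 transcripts and genes (0.49, adjusted p = 0.1009) and with types named by the highest marker score (0.50, adjusted p = 0.07478). In neurons, which hold the gene at a like level to astrocytes, Sorl1 medians were 272.5 CPM in WT-veh, 269.9 in WT-PMX, 260.4 in Arc-veh and 264.6 in Arc-PMX, and it was not called.

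Bin1 was lower in Arctic microglia. The 4 WT-veh wells with enough microglia had 664.5 (F1), 1444.3 (F2), 730.0 (M1) and 966.2 CPM (M2), and the lowest, median and highest were 544.7, 826.6 and 999.0 CPM in WT-PMX, 536.8, 566.0 and 811.5 in Arc-veh and 611.2, 701.9 and 774.2 in Arc-PMX. None of the 12 Arctic wells (0) lay above the wild-type median, and 4 of 6 Arc-veh wells lay below every WT-veh well. Arc-veh was lower than WT-veh by a log2 difference of -0.63 ± 0.20 (SE, adjusted p = 0.03087) and Arctic than wild type by -0.42 ± 0.14 (SE, adjusted p = 0.02705, both by edgeR's quasi-likelihood test), beside 5.01% and 8.3% of all genes called lower in microglia. Well WT-veh F2 carried much of this: without it the differences were -0.22 (adjusted p = 0.7079) and -0.19 (adjusted p = 0.4686). The first call was also lost without Arc-veh F3, Arc-veh M2, Arc-veh M3 or WT-veh M2 (adjusted p at most 0.05638) and the second without WT-PMX M1 (adjusted p = 0.083). The second was also lost with doublets kept (-0.37, adjusted p = 0.0573), the first with only the 2 groups in the fit (-0.65, adjusted p = 0.05867), and both above 500 transcripts and genes (-0.51, adjusted p = 0.1656, and -0.39, adjusted p = 0.08561). F3 and M3 held too few microglia to enter either.

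In the same nuclei the summed microglia markers were lower in Arctic wells, at 5479.3 to 6898.7 CPM against 7897.6 to 11423.7 CPM in wild-type wells, with no overlap. Transcripts per microglial nucleus were at medians of 829.9 in WT-veh, 928.4 in WT-PMX, 1497.2 in Arc-veh and 1173.7 in Arc-PMX. With this yield as a covariate the averaged Bin1 difference was -0.35 (adjusted p = 0.106, edgeR's quasi-likelihood test). The part of the marker shift in it was not tested. In oligodendrocytes, where Bin1 is highest, medians were 1139.5 and 1276.6 CPM in WT-veh and WT-PMX and 986.0 and 882.4 CPM in Arc-veh and Arc-PMX. The log2 difference was -0.29 ± 0.10 (SE), with an adjusted p of 0.06641 by edgeR's quasi-likelihood test, so it was not called. Without the nearly empty WT-veh wells F3 and M3 it was -0.34 and passed (adjusted p = 0.01299). It also passed with DESeq2 and with RLE size factors (another scaling of the libraries). Without any 1 of WT-veh F3 (the same fit as with at least 20 nuclei per well), WT-veh M3, Arc-veh M1, Arc-veh M3 or Arc-PMX F2 it passed too. It did not pass with doublets kept, above 500 transcripts and genes or with types named by marker score. Nor did it with no filter on low counts, no sex covariate, a replicate block or yield as a covariate. In these fits the adjusted p ran from 0.07166 to 0.267 by edgeR's test. Without any other single well it was not called either (adjusted p at most 0.175, same test).

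**Figure D3:**
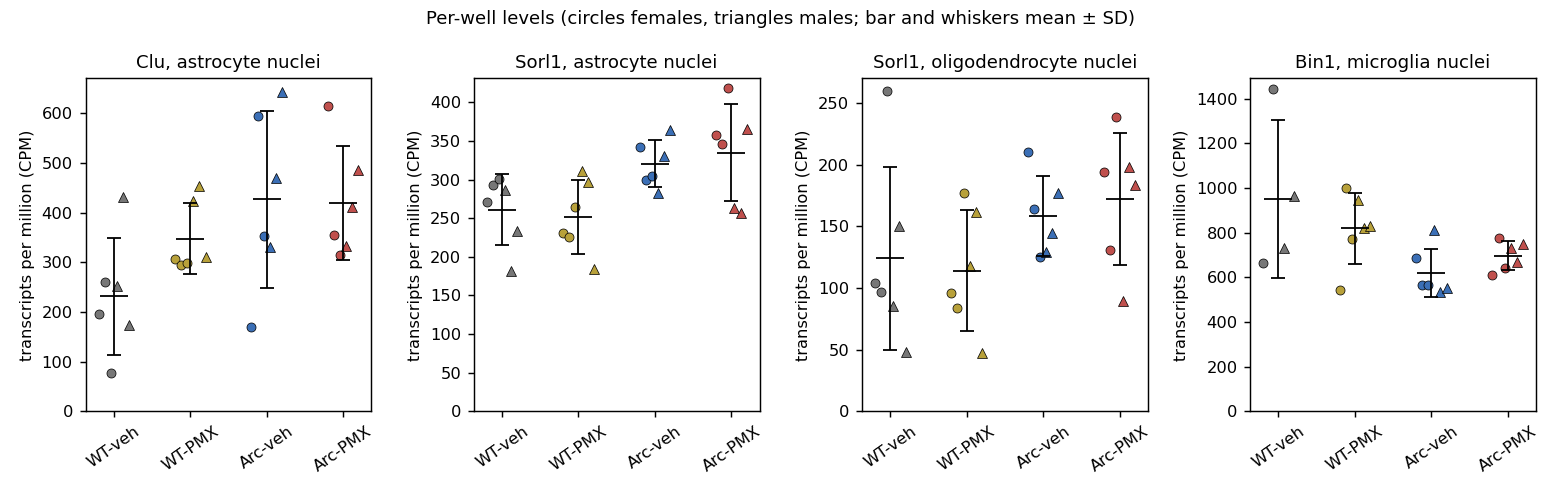
Panels plot CPM per well in the 4 groups for Clu and Sorl1 in astrocytes, Sorl1 in oligodendrocytes and Bin1 in microglia, with a point per well (circles females, triangles males) and a bar with whiskers for the mean ± SD. Arctic wells lie mostly above wild-type wells for Clu and Sorl1 and mostly below for Bin1, with overlap in every panel and 1 high WT-veh well (1444.3 CPM) for Bin1.

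Inpp5d and Plcg2, the phosphoinositide enzymes, were not called in microglia. Inpp5d was 3201.5 (F1), 3314.8 (F2), 3315.3 (M1) and 3182.7 CPM (M2) in WT-veh, 2287.6, 2985.3 and 3861.5 CPM (lowest, median and highest) in WT-PMX, 2110.1, 2537.9 and 2718.8 in Arc-veh and 2288.0, 2629.8 and 3099.6 in Arc-PMX. All 6 Arc-veh wells lay below all 4 WT-veh wells, as they did for Picalm, while the WT-PMX wells of Inpp5d spanned both. With WT-PMX included, only 2 of 12 Arctic wells lay below every wild-type well for Inpp5d, and 2 of 12 for Picalm. Below all WT-veh wells lay 5 Arc-veh wells for Cd2ap, 4 for Bin1 and 1 for Plcg2. Above all WT-veh wells lay 4 for Mef2c and 1 each for Sorl1 and Ptk2b. How often other microglial genes separate in this way was not computed. The differences of -0.34 ± 0.15 for Arc-veh minus WT-veh and -0.21 ± 0.10 for Arctic minus wild type (log2, SE) had adjusted p of 0.1437 and 0.1401 by edgeR's quasi-likelihood test. Plcg2 medians were 555.9 and 549.4 CPM in WT-veh and WT-PMX and 503.4 and 502.1 CPM in Arc-veh and Arc-PMX.

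Mef2c in microglia had medians of 1315.6 CPM in WT-veh, 1776.4 in WT-PMX, 1627.3 in Arc-veh and 1609.7 in Arc-PMX, with a log2 difference of 0.42 ± 0.19 between Arc-veh and WT-veh (SE, adjusted p = 0.1749, edgeR's quasi-likelihood test), and it passed with DESeq2, with no filter on low counts (0.74, where the median of all genes was 0.73) and with types named by the highest marker score. Without WT-veh M1 this difference was 0.27 (adjusted p = 0.5301, edgeR's quasi-likelihood test). Averaged over treatment the Mef2c difference was 0.24 (adjusted p = 0.2096, same test). It passed there with no filter on low counts (0.60) and with types named by the highest marker score (0.56). Ptk2b was at 599.2, 420.2, 673.0 and 560.6 CPM and Picalm at 998.2, 1023.3, 923.6 and 992.3 CPM in the same order. Neither was called. All 12 Arctic wells lay above the wild-type median of Ptk2b, which was called higher with no filter on low counts in the averaged comparison, where the median of all genes was 0.53. Cd2ap in endothelial nuclei was at 384.2, 423.5, 391.2 and 430.5 CPM, over 3 to 5 wells per group. Abca7 in choroid plexus was at 31.1, 59.3, 36.8 and 42.1 CPM, over 2 to 4 wells per group.

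In neurons 0 of the 10 genes passed edgeR's quasi-likelihood test or DESeq2 in either comparison, where 0.0809% and 0.148% of all genes passed edgeR's test. At an unadjusted p under 0.05 there were 3 and 2, beside 8.03% and 6.89% of all genes. Clu, at medians of 5.87 CPM in WT-veh and 8.17 in Arc-veh, had the lowest unadjusted p for Arc-veh minus WT-veh (log2 difference 0.44 ± 0.16 SE, adjusted p = 0.5381, edgeR's quasi-likelihood test). Of 31 pairs of a gene with a neuronal subclass that could be tested, 0 were called between Arc-veh and WT-veh by edgeR or by DESeq2, beside 0.137% of all genes. Mef2c in CA3 neurons (0.78 ± 0.34 SE, adjusted p = 0.6703) and Clu in GABAergic neurons (0.60 ± 0.24 SE, adjusted p = 0.9313) had an unadjusted p under 0.05, as did 7.09% of all genes.

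PMX205 changed none of the genes detectably. Between Arc-PMX and Arc-veh 0 of 50 pairs passed edgeR's quasi-likelihood test, beside 0.0149% of all genes, and 0 passed DESeq2. At an unadjusted p under 0.05 there were 0 pairs, beside 2.42% of all genes. Between WT-PMX and WT-veh 0 passed by either tool, beside 0.0174% of all genes by edgeR. An unadjusted p under 0.05 was found for 2 of 50 (Clu in astrocytes, 0.48 ± 0.22, and Picalm in choroid plexus, 0.63 ± 0.30, log2, SE) and for 3.79% of all genes, so that count is near the background. The PMX205 effect in Arctic minus that in wild-type mice passed in 0 pairs by either tool, beside 0.00248% of all genes by edgeR, and 0 pairs had an unadjusted p under 0.05, beside 3.23% of all genes. For the genes called between genotypes, Arc-PMX minus Arc-veh was 0.00 ± 0.20 for Clu and 0.05 ± 0.13 for Sorl1 in astrocytes, 0.09 ± 0.21 for Sorl1 in oligodendrocytes and 0.15 ± 0.15 for Bin1 in microglia (log2, SE). For Inpp5d and Plcg2 in microglia it was 0.09 ± 0.12 and -0.09 ± 0.17.

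**Figure D4:**
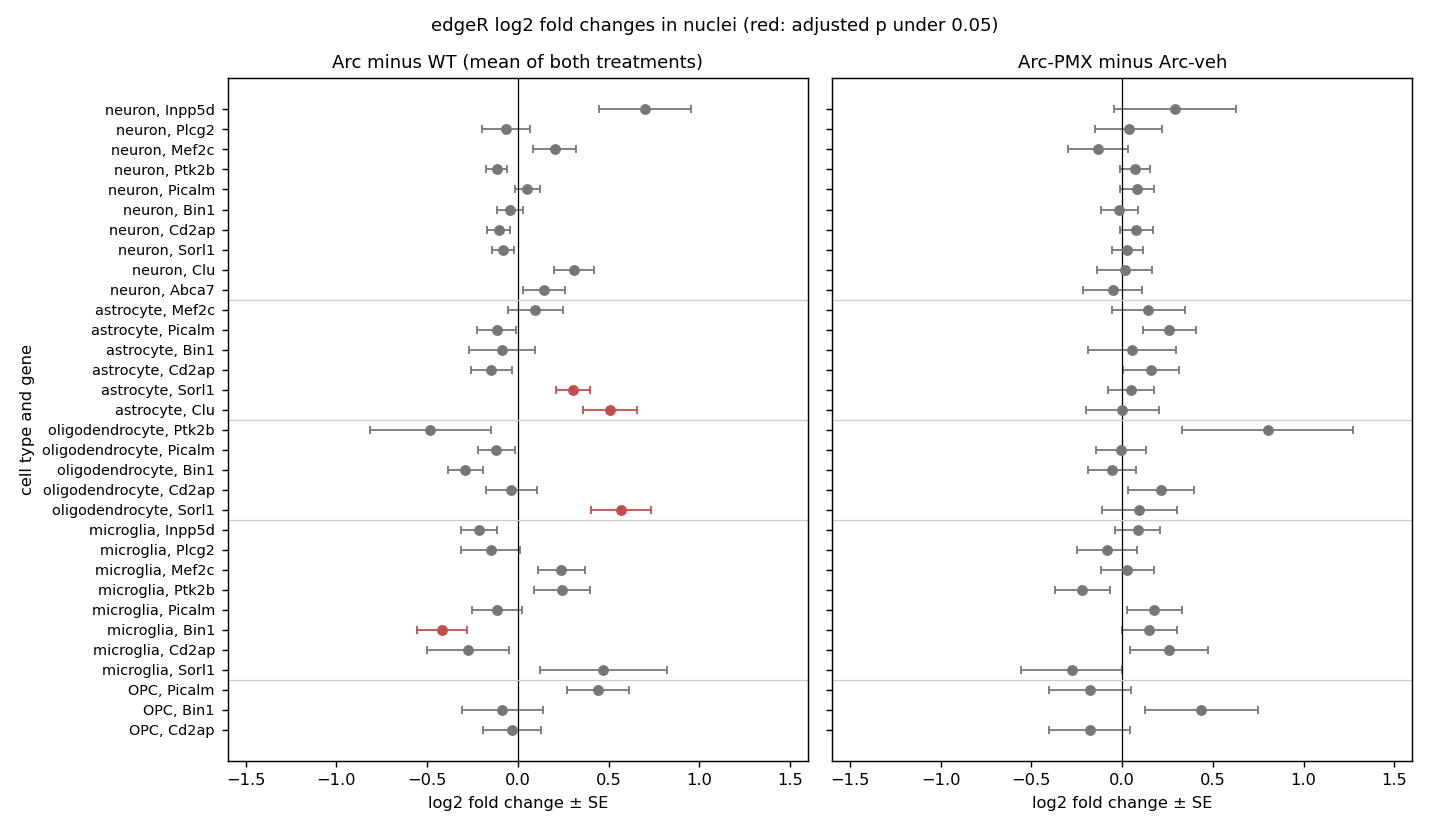
Points give the log2 fold change ± SE of each gene in neurons, astrocytes, oligodendrocytes, microglia and OPCs, for Arctic minus wild type (left) and Arc-PMX minus Arc-veh (right), and red marks an adjusted p under 0.05. On the left 4 points are red (Clu and Sorl1 in astrocytes, Sorl1 in oligodendrocytes, Bin1 in microglia), and on the right 0 are.

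The CD11b-selected single cells gave a separate preparation of microglia, with 2255 of 3823 cells named as microglia in 17 wells (3 in each wild-type group, 5 Arc-veh and 6 Arc-PMX). Inpp5d had a lowest, median and highest of 1379.8, 3374.0 and 4679.7 CPM in WT-veh, 1732.8, 2036.6 and 2479.1 in WT-PMX, 771.1, 1426.2 and 1577.1 in Arc-veh and 1267.0, 1488.3 and 1616.4 in Arc-PMX. Of 11 Arctic wells, 0 lay above the wild-type median. The Arctic minus wild-type difference was -0.60 ± 0.21 on the log2 scale (SE) with an adjusted p of 0.05996 by edgeR's quasi-likelihood test. Bin1 medians were 965.9 and 1439.1 CPM in WT-veh and WT-PMX and 771.1 and 774.1 in Arc-veh and Arc-PMX, with a difference of -0.40 ± 0.19 (SE, adjusted p = 0.2016). Plcg2 medians were 482.9 and 731.5 CPM in WT-veh and WT-PMX and 358.0 and 422.2 in Arc-veh and Arc-PMX (-0.42 ± 0.27 SE, adjusted p = 0.3711). For Bin1 and Plcg2 too, 0 of 11 Arctic wells exceeded the wild-type median. Ptk2b and Cd2ap went the other way, each with 9 of 11 Arctic wells above it, and Picalm and Mef2c had 4 each. How often other genes split in this way was not computed. The WT-veh wells held as few as 13 of these cells and 6197 transcripts. Transcripts per cell were at medians of 629.8 in WT-veh, 630.9 in WT-PMX, 915.5 in Arc-veh and 910.0 in Arc-PMX. These differences with yield per cell as a covariate are not given here.

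Of the 7 genes tested in these cells, 0 were called by edgeR in Arctic against wild type, beside 11.3% of all 1111 genes. An unadjusted p under 0.05 was found for 2 (Inpp5d and Bin1), beside 23.3% of all genes. Between Arc-PMX and Arc-veh 0 were called by edgeR or by DESeq2, beside 0.0% of all genes by edgeR. Mef2c alone had an unadjusted p under 0.05 for Arc-PMX minus Arc-veh (0.0256), beside 9.36% of all genes, with a difference of -0.47 ± 0.20 on the log2 scale (SE, adjusted p = 0.4634, edgeR's quasi-likelihood test). Its medians were 1533.1 CPM in Arc-veh and 1018.9 in Arc-PMX, and in nuclei the same difference was 0.03 ± 0.15.

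Another 4 lists of related genes were followed in the same fits, and each was chosen with earlier results of these data known. Of 137 pairs of another Alzheimer's risk gene with a cell type, 8 were higher and 3 lower in Arc-veh than in WT-veh, and 9 and 3 in the averaged comparison. Among all genes 2.11% were higher and 1.26% lower in the first, and 3.33% and 2.4% in the second. App, the amyloid precursor gene, was higher in oligodendrocytes, at a median of 1481.4 CPM in WT-veh and 3031.8 in Arc-veh (log2 difference 1.19 ± 0.14 SE, adjusted p = 2.026e-07). App in neurons was also among the 8, and App in neurons, oligodendrocytes and astrocytes was among the 9. The Arctic mice carry an APP transgene, and whether its reads were counted under App was not tested. Jazf1, a transcriptional cofactor, rose in astrocytes (29.1 to 83.1 CPM, 1.33 ± 0.20 SE, adjusted p = 4.107e-06). In microglia Ctsb, a lysosomal protease, rose by 1.90 ± 0.45 (SE, adjusted p = 0.003057) and Wwox by 0.99 ± 0.24 (SE, adjusted p = 0.004523). The transcription factor gene Maf changed there by -1.41 ± 0.26 (SE, adjusted p = 0.000225, all by edgeR's quasi-likelihood test), from a median of 632.0 CPM in WT-veh to 237.6 in Arc-veh. For Wwox, whose WT-veh median was 586.1 CPM, the WT-PMX wells had a median of 864.8. Their highest well (1379.4 CPM) stood above the highest Arc-veh well (1359.4 CPM).

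Of 104 pairs of an endocytosis partner with a type, 1 was higher and 2 were lower between Arc-veh and WT-veh, beside 2.11% and 1.26% of all genes. All were in astrocytes, which also held 925 of the 1361 calls over all genes. Cttn, an actin-binding protein, rose by 1.36 ± 0.24 on the log2 scale, Eps15, a clathrin-coat scaffold, changed by -0.43 ± 0.11 and Sh3gl2, endophilin A1, by -0.64 ± 0.22 (SE, adjusted p = 5.857e-05, 0.003836 and 0.04904, edgeR's quasi-likelihood test). Eps15 wells did not overlap between WT-veh (407.2 to 516.8 CPM) and Arc-veh (313.1 to 396.0). The averaged comparison gave 3 higher and 2 lower, beside 3.33% and 2.4% of all genes.

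Sorting receptors and retromer subunits, the relatives and partners of Sorl1, gave 0 of 52 pairs between Arc-veh and WT-veh by edgeR's quasi-likelihood test (4 at an unadjusted p under 0.05, beside 11.8% of all genes), and 0 higher and 3 lower in the averaged comparison, where 2.4% of all genes were lower. Partners of PLCG2 and SHIP1 in microglial signalling gave 0 of 20 (4 at an unadjusted p under 0.05, beside the same 11.8%), and 0 higher and 3 lower in the averaged one, beside the same 2.4%. The nearest were Lyn in astrocytes (-0.72 ± 0.28 SE, adjusted p = 0.08335) and Pik3cd in microglia (-0.66 ± 0.25 SE, adjusted p = 0.08572). Trem2 in microglia was at medians of 63.9 CPM in WT-veh, 208.3 in WT-PMX, 214.2 in Arc-veh and 155.9 in Arc-PMX, so that WT-PMX stood near Arc-veh (Arc-veh minus WT-veh 1.03 ± 0.47 SE, adjusted p = 0.1754). In the comparisons of PMX205 with water 0 pairs of any list were called.

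Over the 10 cell types, and among 8152 genes, the genes whose mean log2 CPM followed each member most closely were named by Pearson's r, as a description across types that share wells. Inpp5d was nearest to Stab1 (r = 0.99), Fes (0.99) and Sp110 (0.98), Plcg2 to Arhgap25 (0.94), Mef2c to Sh2d3c (0.97), Ptk2b to Btbd9 (0.93) and Clu to Fam107a and Plcd4 (0.95 and 0.94). Picalm was nearest to Ncoa3 (0.96), Bin1 to 5033421B08Rik (0.96) and Trim36 (0.94), and Cd2ap to Arl6ip5 (0.91). Sorl1 and Abca7 had no such close neighbour, at most 0.80 (Man1a) and 0.83 (D5Ertd579e).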

How the data were processed

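RNA of hippocampal nuclei and CD11b-selected cells was barcoded in 48 wells and sequenced as 7 sublibraries. The authors ran the Parse split-pipe pipeline and deposited raw counts of transcripts per gene and barcode on mm10, with no normalization, and the submitters' notes also name bcl2fastq. Barcodes with more than 300 transcripts and under 50000 were kept, with more than 400 genes and under 1% mitochondrial transcripts for nuclei, and more than 300 genes and under 10% for cells. Scrublet (score above 0.25) removed 1247 of 45138 nuclei and 8 of 3831 cells. Of 47714 kept barcodes, 8217 share their barcode string between sublibraries and were treated as separate. Clusters came from 2000 variable genes (members left out), 30 principal components and Leiden (scanpy 1.11.5, leidenalg 0.10.2), and were named from marker lists by rules set after the clusters were seen. The members and lists were chosen with earlier results of these data known.

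Counts were summed per well and type with at least 10 nuclei, in types with at least 2 wells in every group (ependymal nuclei had 1 in Arc-PMX and were not tested). edgeR 4.0.16 in R 4.3.3 (TMM, filterByExpr, quasi-likelihood test, sex as covariate) gave 5 contrasts, with Benjamini-Hochberg adjustment across every gene tested in that type for that contrast. DESeq2 1.42.0 was an alternative. Neighbouring types were compared by sign-flip permutation (exact up to 16 wells, otherwise 100000 resamples) on log2 CPM with a prior count of 2, adjusted over 90 pairs, or 30 for subclasses. In Arctic minus wild-type microglia, tests on simulated data recovered 35.5% of 1.5-fold and 72.6% of 2-fold changes among 2157 genes, and in astrocytes 50% and 88.5% among 7341 genes. In Arc-veh minus WT-veh they recovered 8.1% and 32.3% in microglia and 18.8% and 60.7% in astrocytes. The simulated spread was estimated with sex but not group in the model, so real differences between groups entered it as spread. The simulated data carried no change between Arc-PMX and Arc-veh, so they give no recovery for the PMX205 comparisons. Coordinates are from GENCODE annotation of mm10, which matched 99.85% of the gene IDs. Named were all members, per-well values where a pair was called or a type was highest, up to 5 genes per list with the lowest adjusted p in Arc-veh minus WT-veh, and the 3 genes most like each member. The values of Inpp5d, Mef2c, Ptk2b and others given beyond this were chosen after they were seen. No sample column was left out. The study left out 1 wild-type sample that proved to be Arctic by expression but does not name it, so every well was used here and none relabelled. Each nuclear well is 1 mouse, so the tests measure the spread between mice.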

Additional observations from a re-analysis of the deposited data

Results flagged for a closer look

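Of 45 groups of 4 to 10 wells examined, 2 had a well far from the rest of its group, by Dixon's 95% limit, which chance passes in about 1 group in 20. In microglia Plcg2 was at 260.873 CPM in Arc-PMX M2, below the next well at 477.805 CPM. In oligodendrocytes Bin1 was at 1346.988 CPM in Arc-PMX F2, above the next well at 935.793 CPM. Without Arc-PMX F2, Bin1 in oligodendrocytes joined the genes called lower in Arctic mice, which made 5 pairs.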

How the results depend on the processing

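The counts that moved by over 1.5 times are given here, that with a replicate block in the next paragraph. For Arc-veh minus WT-veh, 2 pairs became 1 with only the 2 groups compared (Bin1 lost), 1 without WT-veh F3 and M3 (Clu lost), 1 with barcodes above 500 transcripts and genes (Bin1 lost), and 0 with yield per nucleus as a covariate (chosen after seeing the data). Leaving out 1 well at a time gave 0 (without Arc-veh M3) to 2. Within 1.5 times, Arc-veh minus WT-veh had 3 with doublets kept (Ptk2b lower in oligodendrocytes added), and Arctic minus wild type had 6 with types named by marker score (Mef2c in microglia and OPCs and Picalm in OPCs higher added, Sorl1 in oligodendrocytes lost). With doublets kept, Arctic minus wild type also had 4, but only Clu and Sorl1 in astrocytes were shared, and Ptk2b was called lower in astrocytes and oligodendrocytes. For Arctic minus wild type, 4 became 2 above 500 transcripts and genes and 1 with yield as a covariate, and leaving out 1 well gave 2 (without WT-veh F2) to 5. The 18 neighbouring type pairs became 45 when each nucleus took the type of its highest marker score (15 of the 18 kept) and 9 with at least 20 nuclei per well (8 kept), where fewer wells were left. The counts for PMX205 against water (in nuclei, and in single cells for Arc-PMX minus Arc-veh) and for Arc-veh minus WT-veh in subclasses were 0 under every alternative run and without each well.

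With a replicate block the counts were 1 and 3, Bin1 in microglia being the pair lost (-0.55, adjusted p = 0.1026 for Arc-veh minus WT-veh, and -0.37, adjusted p = 0.07137, edgeR's quasi-likelihood test). Same-numbered wells correlated at a median of 0.04 in neurons and 0.04 in astrocytes, over 0.1 in 13 and 9 of 36 pairs. Wells with other numbers correlated at medians of -0.018 and -0.011. In nuclei the number also follows the position of the well on the plate. These correlations cannot decide whether the numbers pair the wells. With no filter on low counts Bin1 in microglia was -0.33 and -0.07 (adjusted p = 0.7353 and 1.0), where the median of all genes was 0.73 and 0.53, and -0.64 and -0.49 with at least 20 nuclei. Over its alternatives the adjusted p of Clu in Arctic minus wild type ran from 2.407e-06 to 0.693, of Sorl1 from 0.007189 to 0.1172 in astrocytes and 0.009641 to 0.1431 in oligodendrocytes, and of Bin1 from 0.003825 to 1.0. No called difference changed sign. The cause was not tested. Subclasses were not refitted with doublets kept or by marker score, nor the averaged and interaction contrasts with only 2 groups.

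Depth limits the small types: WT microglia wells hold 10 to 47 nuclei, and several member values there rest on fewer than 10 transcripts.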
